A study of Mus musculus with 13 samples.

Results

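Mcpt8, Mcpt4, Cma1, Tpsb2, Cpa3 and Hdc are 6 mediator genes of basophils and mast cells, found by symbol among the 31053 genes counted. They were followed in 33618 cells of mouse single-cell libraries whose samples are labelled lung. In these cells mitochondrial genes made up at most 10% of the unique molecular identifiers (UMIs, each marking 1 captured RNA molecule). Cells with at least 1 UMI of Ms4a2, the beta chain of the high-affinity IgE receptor that both lineages carry, numbered 101. Among them, a basophil pattern was read as Mcpt8 without Mcpt4, Cma1 or Tpsb2, and a mast cell pattern as any of those 3 without Mcpt8.

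Basophils and mast cells store histamine and proteases in granules and release them when IgE on their surface meets antigen. Basophils circulate and enter inflamed lung from the blood, whereas mast cells live in the tissue, as a connective tissue type around vessels and airways and as a mucosal type in epithelia. Mcpt8 is a basophil granule protease, Mcpt4 and Cma1 are mast cell chymases, Tpsb2 is a tryptase, Cpa3 a carboxypeptidase, and Hdc, histidine decarboxylase, is the enzyme that makes histamine.

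By their labels, 4 samples are Asthma, Control, PPE-emphysema and PPE-recovery lungs, where PPE is porcine pancreatic elastase instilled into the airways and the asthma model is ovalbumin-induced. The mice were C57BL/6, each of these samples stands for a single animal, and the labels give no age. The other 9 samples (Acute injury, Con and emphysema, 3 each) were taken as bulk samples and have no values here. The single-cell counts form 1 matrix with library numbers 1 to 7 and no group name. These 7 libraries outnumber the 4 samples, and which library belongs to which sample is not given. Libraries are therefore given by number, no condition is compared, and the matrix was used as 1 sample without replicates or tests. Values are CPM, the UMIs of a gene relative to all UMIs of the summed cells on the usual CPM scale, with exact Poisson 95% intervals, or shares of cells with exact Clopper-Pearson 95% intervals, and both cover counting error only.

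The libraries held 2992 to 7626 kept cells, with median depths of 5272 to 9114 UMIs. Libraries 4, 5 and 6 stood apart: globin genes took 35.34% to 40.65% of their UMIs against at most 0.031% elsewhere, and the lung epithelial genes Sftpc and Scgb1a1 were at no more than 0.574 CPM, although the labels name lung for every sample. Their shallowest kept cells had 3439 to 5735 UMIs, against 304 to 501 in libraries 1, 2, 3 and 7. Barcode sequences found in more than 1 library numbered 153. Results are therefore given for libraries 1, 2, 3 and 7 and for libraries 4, 5 and 6 wherever they rest on them.

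The chymase genes lie together. Cma1 (14:55941451-55944675), Mcpt4 (14:56059629-56062313) and Mcpt8 (14:56082166-56085273) sit on the minus strand of chromosome 14, in the GRCm38 assembly that mm10 names, as protein-coding genes in a stretch of 15 such genes that runs to Gzmb. Cpa3 lies on chromosome 3 (20215620-20242181), Hdc on chromosome 2 (126593667-126619299) and Tpsb2 on chromosome 17 (25366305-25369098). The upstream sequences of the 4 minus-strand protease genes are shown because 3 of them lie in 1 locus, where Mcpt8 and Cma1 had most of their UMIs in different cell classes. They are RefSeq promoter sequences of GRCm38.p6, 5′ to 3′ on the gene's strand and cut to the bases before the annotated gene, with GATA motifs (the letters AGATAA, the letters AGATAG, the letters TGATAA or the letters TGATAG) and RUNX motifs (TGTGGT) in capitals, on either strand.
Mcpt8, chr14:56085274-56085447: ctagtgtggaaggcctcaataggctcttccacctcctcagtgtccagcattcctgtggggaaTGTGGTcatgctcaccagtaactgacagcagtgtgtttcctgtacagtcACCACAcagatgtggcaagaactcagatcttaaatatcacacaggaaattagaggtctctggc
Mcpt4, chr14:56062314-56062560: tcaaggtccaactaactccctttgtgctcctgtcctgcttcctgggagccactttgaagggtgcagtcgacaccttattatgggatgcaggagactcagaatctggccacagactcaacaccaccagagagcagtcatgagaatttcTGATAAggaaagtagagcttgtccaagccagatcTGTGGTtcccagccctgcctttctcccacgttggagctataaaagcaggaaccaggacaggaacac
Cma1, chr14:55944676-55944925: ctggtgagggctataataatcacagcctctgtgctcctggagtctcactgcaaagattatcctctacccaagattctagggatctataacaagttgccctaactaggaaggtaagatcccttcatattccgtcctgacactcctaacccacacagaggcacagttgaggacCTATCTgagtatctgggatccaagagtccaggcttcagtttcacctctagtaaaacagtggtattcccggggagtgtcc
Cpa3, chr3:20242182-20242431: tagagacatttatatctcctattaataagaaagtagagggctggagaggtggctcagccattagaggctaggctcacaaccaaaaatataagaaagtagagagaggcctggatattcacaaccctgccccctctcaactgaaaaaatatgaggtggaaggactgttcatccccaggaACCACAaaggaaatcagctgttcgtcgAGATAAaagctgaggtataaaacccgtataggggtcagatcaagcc

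The RefSeq table held 5 of the 6 genes. Distances are counted from the RefSeq start, in the 250 bases before it. For Mcpt8 and Mcpt4 this start lies inside the annotated gene, so 76 and 3 bases of their windows are not printed. Mcpt8 had 2 RUNX matches, at 188 and 139 bases, and no GATA match. Mcpt4 had a GATA match at 103 bases and a RUNX match at 69 bases, and Cpa3 had a GATA match at 46 bases and a RUNX match at 73 bases. Cma1 had only a GATA match, at 79 bases, and Hdc only a GATA match, at 221 bases, in a RefSeq window that lies wholly inside the Hdc gene as positioned above and is not printed. Of all 32851 promoters in the table, 26.54% held a GATA match and 14.05% a RUNX match over the same length, so a match is a description of these letters. STAT motifs (TTCNNNGAA) and C/EBP motifs (the letters TTGCGCAA, the letters TTGTGCAA or the letters TTGCACAA) had no match in any of the 5 windows, where 7.02% and 1.06% of all promoters held one.

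The 6 genes differed widely in how often they were seen. Mcpt8 had 429 UMIs in 68 cells and Cpa3 had 471 in 105 cells. Mcpt4 had 60 UMIs in 6 cells, and Tpsb2 had 31 UMIs, all in 1 cell. Cma1 had 1211 UMIs in 349 cells and Hdc had 20831 in 3382 cells, so these 2 genes were mostly read outside the rare mast cells and basophils.

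**Figure D1:**
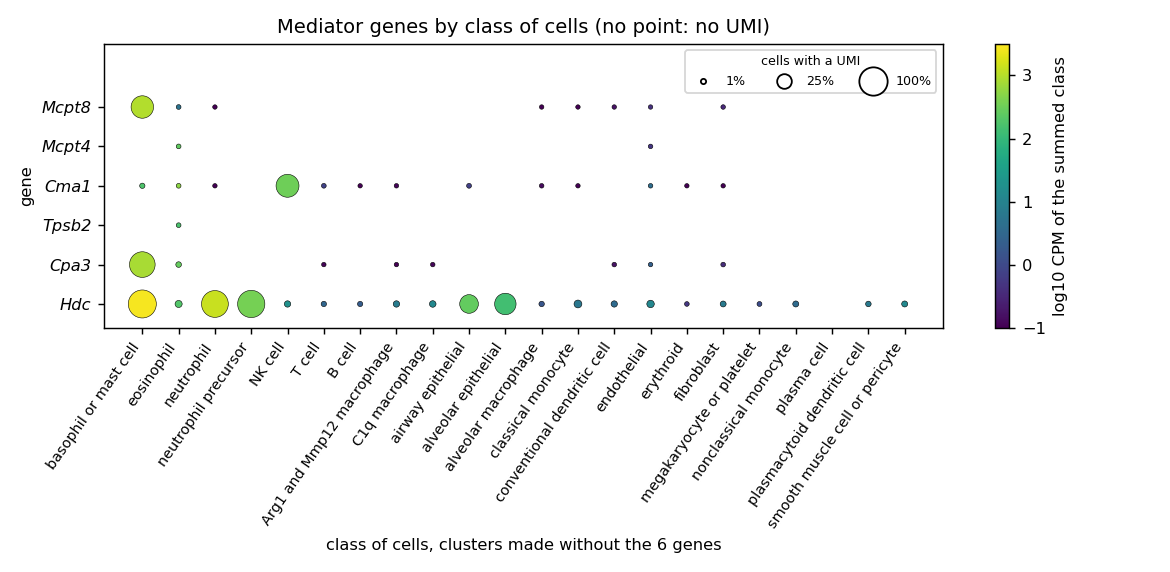
Levels of the 6 genes (rows) in each named class of cells (columns), with color for log10 CPM of the summed cells and point size for the share of cells with a UMI. Mcpt8 and Cpa3 have their large points in the basophil or mast cell-like class, Cma1 in NK cell-like cells, and Hdc in basophil or mast cell-like, neutrophil-like and epithelial classes; the eosinophil-like points of Mcpt4, Cma1 and Tpsb2 are 1 cell.

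Classes of cells were named from marker lists after clustering without the 6 genes and without Ms4a2. One cluster of 92 cells was basophil or mast cell-like. Among the genes that named it, Fcer1a, the alpha chain of the IgE receptor, was at 917 CPM. Cd200r3, a surface receptor listed for both lineages, was at 1005 CPM, and Gata2, a transcription factor of both lineages, at 1962 CPM. Of the Ms4a2-positive cells, 82 lay in this cluster. Of the 6 genes, 3 were highest in it by at least 2-fold over every other named class, namely Mcpt8, Cpa3 and Hdc, where 0.978% of the 14211 genes with at least 200 UMIs met this mark. The cluster held 399 of the 429 UMIs of Mcpt8 and 331 of the 471 of Cpa3. Both genes reached 200 UMIs only through the cluster, so the filter largely set their calls, which are a description. Mcpt8 and Cpa3 met the 2-fold mark in libraries 1, 2, 3 and 7 and in libraries 4, 5 and 6 taken alone. Hdc met it in neither set, with ratios over neutrophil-like cells of 1.35 and 1.78 against 2.08 pooled. None of the 6 was so in neutrophil-like cells, as 0.493% of genes were, or in NK cell-like cells, as 0.577% were, where the eosinophil-like value of Cma1 is that of 1 cell. Mcpt4 and Tpsb2 fall below 200 UMIs, and neither gave a UMI in the cluster, where 3 counts would be 7.32 CPM.

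Among genes with at least 200 UMIs, listed basophil markers were more often highest in this cluster than listed mast cell markers. This filter kept 15 of 16 basophil markers but 11 of 18 mast cell markers. The lists were also chosen with earlier results of these data known, so these counts are a description and no test. Of 15 basophil markers outside the 6 genes with at least 200 UMIs, 12 were highest there by at least 2-fold. The share over all genes was 0.978%. Of these 12, Cd200r3, Cyp11a1, Csf1 and Hgf were in the list that named the cluster, so they are not independent of its name. Cd200r3 is also listed as shared by both lineages. The chemokines Ccl3, at 10120 CPM, and Ccl4, at 15615 CPM, and the cytokine Il6, at 2313 CPM, were not in the naming list. The 2-fold mark compares named classes only. An unnamed cluster of 119 cells, described below, was also led by Ccl4 and Ccl3, with Csf1 among its leading genes. Cyp11a1, a steroid-synthesis enzyme, was at 1330 CPM. The basophil markers Il4, Itga2 and Cd9 did not meet the mark, although Il4 was in the naming list. Il4 was at 178 CPM in the cluster and 391 CPM in eosinophil-like cells. Itga2 was at 171 CPM against 225 CPM in NK cell-like cells, and Cd9 at 1413 CPM against 3832 CPM in alveolar macrophage-like cells. Of 11 mast cell markers, 1 met the 2-fold mark, the mucosal mast cell protease Mcpt2 at 390 CPM, and it did so through 160 UMIs in 1 cell. Kit, the stem cell factor receptor that mature mast cells keep, was at 29.3 CPM in the cluster against 364 CPM in endothelial-like cells. All 12 Kit UMIs of the cluster were in that same cell. The tryptase Tpsab1 had no UMI in any kept cell.

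The basophil pattern prevailed among Ms4a2-positive cells. It was found in 59 of 101 cells, or 58.4% (48.2 to 68.1). The mast cell pattern was found in 1 cell, or 0.99% (0.025 to 5.39), both patterns together in 1 cell, and neither in 40 cells, or 39.6% (30.01 to 49.8). In libraries 1, 2, 3 and 7, the basophil pattern made up 53 of 85 cells, or 62.4% (51.2 to 72.6). Libraries 4, 5 and 6 gave 6 of 16 cells, or 37.5% (15.2 to 64.6), an interval that overlaps the former.

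By library, Ms4a2-positive cells were 0.708% of kept cells in library 1, 0.328% in library 2, 0.312% in library 3 and 0.303% in library 7. They were 0.0668% in library 4, 0.164% in library 5 and 0.123% in library 6. The basophil pattern was carried by 22 of 34 such cells in library 1, 14 of 25 in library 2, 7 of 16 in library 3, 1 of 2 in library 4, 4 of 8 in library 5, 1 of 6 in library 6 and 10 of 10 in library 7. Library 7 was the only one in which every Ms4a2-positive cell had Mcpt8, with an interval of 69.2% to 100% that overlaps that of library 1, 46.5% to 80.3%, but not that of library 6, 0.421% to 64.1%.

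**Figure D2:**
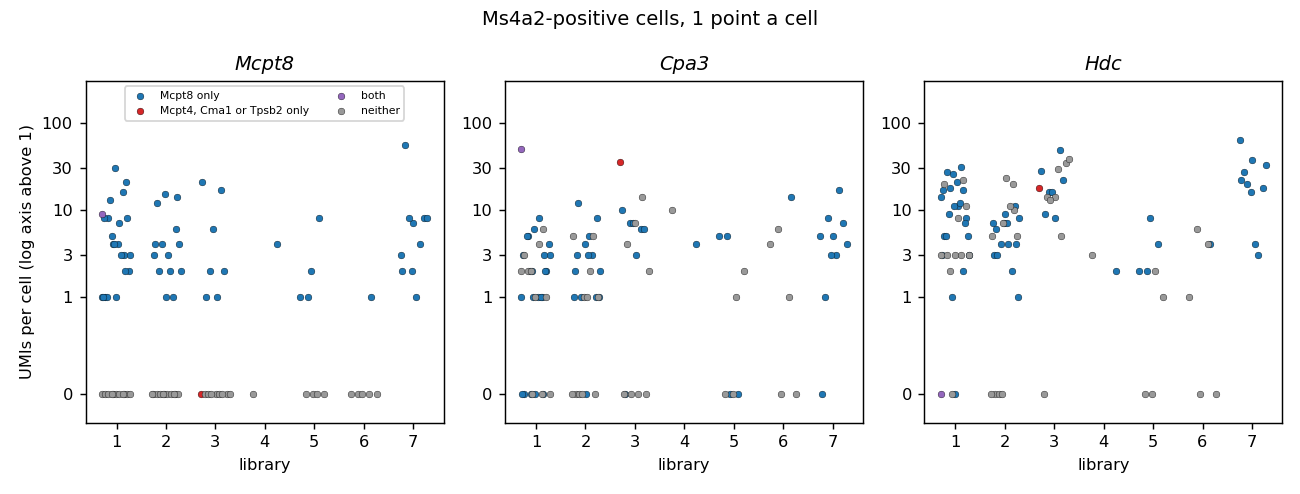
UMIs per cell of Mcpt8, Cpa3 and Hdc in the 101 Ms4a2-positive cells (1 point a cell) by library, on an axis that is logarithmic above 1 UMI, with color for the pattern. Mcpt8 is absent from the cells with neither pattern, 24 of which have Cpa3 and 30 of which have Hdc.

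Mcpt8 varied from cell to cell. In library 1 a Ms4a2-positive cell had 0 to 30 Mcpt8 UMIs with a median of 2, in library 2 0 to 15 with a median of 1, and in library 3 0 to 21 with a median of 0. Library 7 cells had 1 to 55, with a median of 5.5. Libraries 4, 5 and 6 had at most 4, 8 and 1 UMIs in a cell.

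Summed over Ms4a2-positive cells, Mcpt8 was at 800 CPM in library 1 (679 to 936), 388 in library 2 (304 to 488), 572 in library 3 (425 to 754) and 1566 in library 7 (1271 to 1908). In libraries 4, 5 and 6 it was at 184 (50.04 to 470), 281 (145 to 491) and 34.6 (0.876 to 193). Library 7 was above every other library by its interval, but 1 of its 10 cells held 55 of its 98 Mcpt8 UMIs. The interval does not cover such spread between cells. These sums include 19 cells outside the basophil or mast cell-like cluster, with a median of 13060 UMIs, of which library 2 held 7 of its 25. Inside the cluster Mcpt8 was at 1219 CPM in library 1 (1034 to 1426), 853 in library 2 (663 to 1079), 869 in library 3 (663 to 1119) and 1566 in library 7, where the intervals of libraries 1 and 7 overlap. Pooled over Ms4a2-positive cells, Mcpt8 was at 629 CPM (568 to 694), and nearly all of it belonged to these cells, with 91.6% of its UMIs in Ms4a2-positive cells and 93.0% in the basophil or mast cell-like cluster. No other named class exceeded 5.22 CPM, a value that is 1 UMI in eosinophil-like cells, and outside the cluster no cell other than an endothelial-like one with 9 UMIs had more than 4.

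Cpa3, which cuts C-terminal residues of proteins, was read alongside Mcpt8. It was seen in 49 of the 59 cells with the basophil pattern, at 595 CPM (518 to 679), and at 809 CPM in the 53 of them inside the cluster. In Ms4a2-positive cells of libraries 1 to 7 it was at 624, 324, 1155, 643, 305, 865 and 847 CPM. The value of library 2 includes 7 deep cells outside the cluster, and inside it library 2 was at 791 CPM, within the 768 to 857 CPM of libraries 1, 2, 3 and 7. Within the basophil or mast cell-like cluster it was at 821 CPM in libraries 1, 2, 3 and 7 (728 to 923) and at 742 CPM in libraries 4, 5 and 6 (554 to 972). Mcpt8 in the same cells was at 1124 CPM (1014 to 1243) and 242 CPM (141 to 388), and the latter rests on 12 cells.

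Outside the cluster, Cpa3 was sparse. An unnamed cluster of 634 cells led by Cxcr6, Icos and Ctla4 held 17 UMIs in 8 cells, of which 8 UMIs were in 1 cell of library 3. The 52 UMIs in eosinophil-like cells came from 4 cells, with 35 in the cell of mast cell pattern, and 50 of the 51 in endothelial-like cells came from 1 cell described below.

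The 40 Ms4a2-positive cells with neither pattern were of different kinds. The 29 of them inside the cluster had Cd200r3 at 818 CPM (662 to 998), Fcer1a at 818 CPM (662 to 998), Hdc at 2708 CPM (2419 to 3023) and Cpa3 at 622 CPM (487 to 782). In the 53 cells of basophil pattern inside the cluster these genes were at 1111, 949, 2730 and 809 CPM. The remaining 6 cells of basophil pattern lay in other clusters, at a median of 17694.5 UMIs. The 11 in other clusters had no Fcer1a UMI, 2 Cd200r3 UMIs and 5 Hdc UMIs, which were in 1 cell.

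Cells of the cluster with and without a Mcpt8 UMI could be set side by side within libraries 1, 2 and 3, after 1 cell with Cma1 was left out, a choice made once its values were seen. The 40 cells with Mcpt8 had a median of 4164 UMIs and the 29 without it 3368, and the former were deeper in each of the 3 libraries, most in library 3 with 5152 against 3349 UMIs. The part of depth in which cells showed a Mcpt8 UMI was not tested. Prss34, another basophil serine protease, had 50 UMIs with Mcpt8 and none without it. Over all libraries, the 13 cells of the cluster with Prss34 were among its 57 cells with Mcpt8, and the 35 cells without Mcpt8 had none. Ctsg, cathepsin G, had 13 UMIs in the cells with Mcpt8 and none in the others over all libraries.

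Hdc did not follow Mcpt8 in these cells. It was at 3070 CPM with Mcpt8 and 2793 CPM without it in library 1, at 1282 and 2933 CPM in library 2, and at 3909 and 5890 CPM in library 3. Libraries 2 and 3 thus had more Hdc in the cells without Mcpt8, and library 1 did not. Cpa3 was at 624 and 502 CPM in library 1, 922 and 580 CPM in library 2, and 894 and 535 CPM in library 3, higher with Mcpt8 in all 3 of these libraries. The interval of the ratio included equal levels in each library alone and was 1.06 to 2.05 over the 3 together. Cpa3 was not alone in this. Over the 3 libraries the ratio was 1.41 for Ms4a2 (1.04 to 1.94) and 1.30 for Cd200r3 (1.005 to 1.70). For Fcer1a it was 1.03 (0.791 to 1.35). None of these intervals covers spread between cells. Csf1, a macrophage growth factor, was at 1405 CPM with Mcpt8 and 3263 CPM without it over the 3 libraries, and Il13, a type 2 cytokine, had 8 and 19 UMIs.

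Mast cells were so few that they are best given cell by cell. The single Ms4a2-positive cell of mast cell pattern came from library 3 and had 2143 UMIs. It held 49 UMIs of Mcpt4, 105 of Cma1, 31 of Tpsb2, 35 of Cpa3 and 18 of Hdc, with no Mcpt8. It also held 3 UMIs of Kit, 5 of Mrgprb2, a receptor of connective tissue mast cells, 4 of Tph1, the serotonin-synthesis enzyme, and 6 of Prss34. Cma1 alone was 48997 CPM of this cell. Clustering without the 6 genes had placed it among 255 eosinophil-like cells, and it supplied every UMI of Mcpt4, Cma1 and Tpsb2 in that class, while it had no UMI of Ccr3, the eotaxin receptor.

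Another mast cell signature appeared in 2 cells of library 1, which held Cma1 together with Mcpt8. The first had 25420 UMIs, with 77 of Cma1, 50 of Cpa3, 9 of Mcpt8, 27 of Kit and 2 of Ms4a2, and it was the cell that carried both patterns. The second had 4480 UMIs, with 71 of Cma1, 38 of Cpa3, 17 of Mcpt8 and 12 of Kit, and no Ms4a2. Both carried the mucosal mast cell protease Mcpt2, with 152 and 160 UMIs, and Mcpt1, with 47 and 1. Neither had a UMI of Mcpt4, Tpsb2 or Hdc, which the library 3 cell had.

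These 2 cells differed in what else they held. The first lay among endothelial-like cells and had 32 UMIs of Cdh5 and 44 of Vwf, endothelial genes that were absent from the second. Scrublet, a doublet caller, did not call the first cell, and it called 4 cells in library 1. Whether the first cell is a cell pair was not tested further. The barcodes of the 2 cells differed at 11 bases. Mcpt2 had 316 UMIs in 6 cells in all, so these 2 cells held nearly all of it. Cma1 was 15848 CPM of the second cell and 3029 CPM of the first.

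Mcpt4 was also read at 1 to 5 UMIs in each of 5 endothelial-like cells, 1 of library 1 and 4 of library 2. These cells had 30 to 52 UMIs of Vwf, von Willebrand factor, and none of Kit, Cma1 or Cpa3. Their class as a whole was at 0.504 CPM of Mcpt4, 11 UMIs in 3105 cells.

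The larger part of Cma1 lay outside this lineage, in natural killer (NK) cells, lymphocytes that kill with perforin and granzymes. NK cell-like cells held 893 of its 1211 UMIs, or 73.7%, at 315 CPM (295 to 337). A UMI was found in 317 of 490 cells, or 64.7% (60.3 to 68.9). Apart from the eosinophil-like and the basophil or mast cell-like classes, in which all Cma1 came from 1 cell each, the next class was endothelial-like at 3.94 CPM, and 77 of its 86 UMIs came from the first library 1 cell above.

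**Figure D3:**
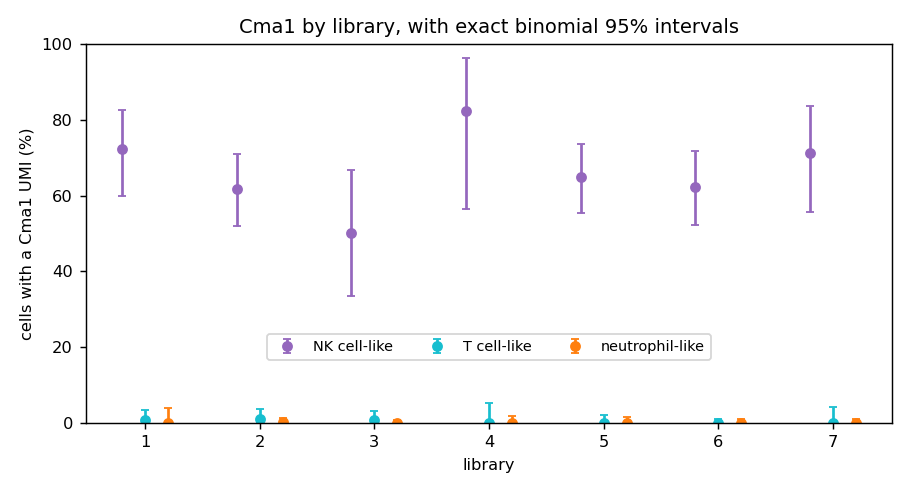
Share of NK cell-like, T cell-like and neutrophil-like cells with a Cma1 UMI in each library, with exact 95% intervals. NK cell-like cells range from 50% to 82.4%, and the other 2 classes stay at or below 1.04%.

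Cma1 was read in NK cell-like cells of all 7 libraries, which held 17 to 114 such cells. The level was 402 CPM in library 1 (332 to 483), 423 in library 2 (368 to 485), 215 in library 3 (159 to 284) and 455 in library 7 (374 to 549). In libraries 4, 5 and 6 it was 219 (153 to 304), 287 (250 to 328) and 237 (201 to 278). Libraries 1, 2 and 7 formed the upper end and libraries 3, 4 and 6 the lower. Pooled, libraries 1, 2, 3 and 7 were at 387 CPM (353 to 423) and libraries 4, 5 and 6 at 260 CPM (235 to 286), so the gene was well read in both sets.

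Depth and free RNA bear on such a share. T cell-like cells, which were a little deeper at a median of 6581 UMIs against 5086, had a Cma1 UMI in 5 of 1267 cells, or 0.395% (0.128 to 0.919), and B cell-like cells in 0.0246%. After thinning to 1000 UMIs a cell, 127 of 482 NK cell-like cells kept a Cma1 UMI, or 26.3% (22.5 to 30.5), with 8 shallower cells left out, and none of 1248 T cell-like cells did, with an exact upper bound of 0.295% of cells at that depth. The thinned share was 23.1% to 35.6% over the libraries, and all 7 intervals overlapped.

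No NK cell-like cell had a UMI of Mcpt8, Mcpt4, Tpsb2 or Cpa3, for each of which 3 counts would be 1.06 CPM, and Cma2, the neighbour of Cma1, had 1 UMI there. Gzmb, granzyme B, at the other end of the locus, was at 960 CPM in NK cell-like cells and 632 CPM in the basophil or mast cell-like cluster. The 4 granzyme genes Gzme, Gzmd, Gzmg and Gzmn of the same locus had no UMI in any kept cell.

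**Figure D4:**
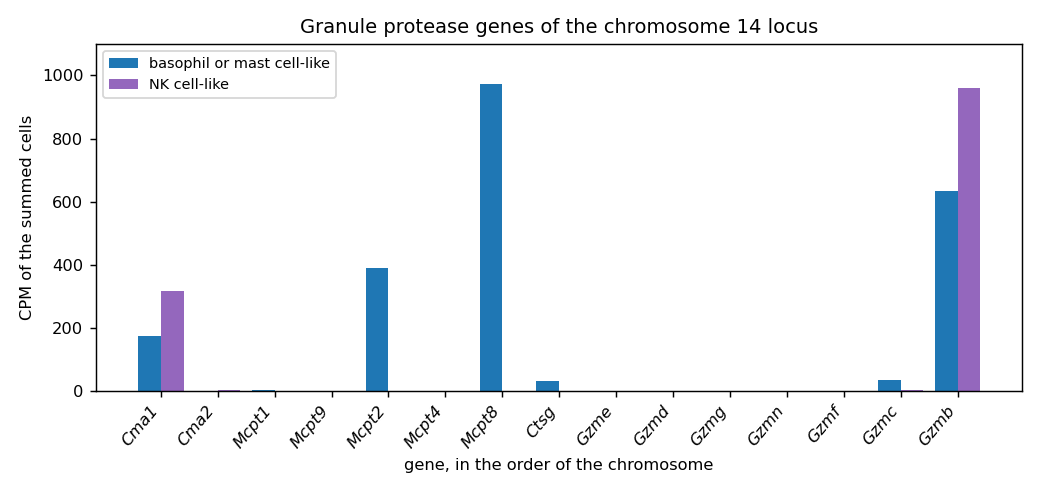
CPM of the 15 protein-coding genes of the chromosome 14 locus, in their order on the chromosome, in basophil or mast cell-like and in NK cell-like cells. Cma1 and Gzmb at the ends of the locus are read in both classes and Mcpt8 in the first alone; the bars of Cma1 and Mcpt2 in the basophil or mast cell-like class come from 1 cell.

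Hdc was the most widely read of the 6 genes. It was highest in basophil or mast cell-like cells at 2733 CPM (2575 to 2897), in 90 of 92 cells, followed by neutrophil-like cells at 1315 CPM (1293 to 1336). Neutrophil precursor-like cells were at 358 CPM, airway epithelial-like at 264 CPM, eosinophil-like at 193 CPM and alveolar epithelial-like at 138 CPM. Of the 37 eosinophil-like UMIs, 18 were in the cell of mast cell pattern, and without it that class was at 100.3 CPM, below alveolar epithelial-like cells. Because neutrophils were many, 14382 Hdc UMIs, or 69.0%, came from neutrophil-like cells and 5.38% from the basophil or mast cell-like cluster.

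Across libraries with at least 10 such cells, Hdc ran from 1915 to 4606 CPM in the basophil or mast cell-like cluster (4 libraries) and from 170 to 2923 CPM in neutrophil-like cells (7 libraries), so these ranges overlap. Airway epithelial-like cells ran from 188 to 361 CPM and alveolar epithelial-like cells from 110 to 157 CPM, each over 4 libraries, without overlap. Eosinophil-like cells, at 61.9 and 201 CPM in 2 libraries, overlapped both.

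**Figure D5:**
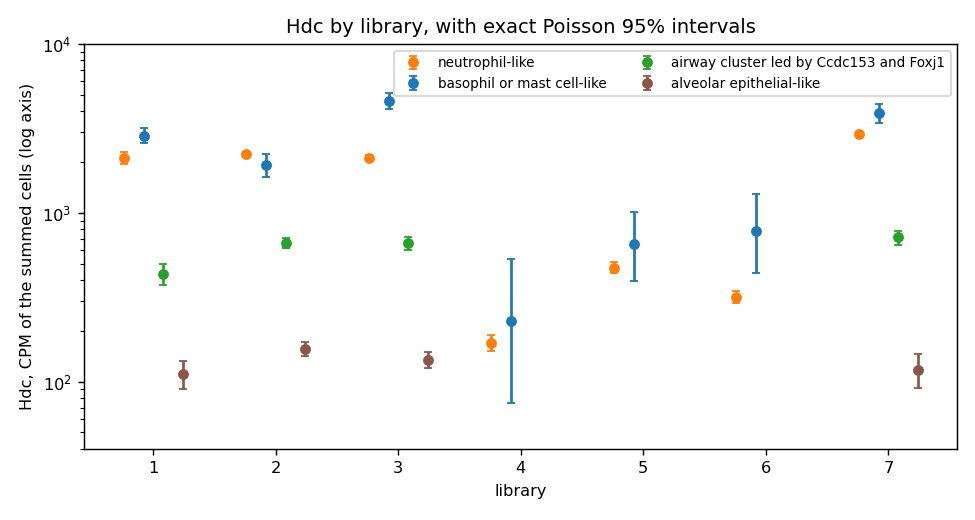
Hdc level (CPM of the summed cells, logarithmic axis) by library in neutrophil-like cells, the basophil or mast cell-like cluster, an airway cluster with Ccdc153 and Foxj1 among its leading genes, and alveolar epithelial-like cells, with exact Poisson 95% intervals. Both granulocyte classes are lower in libraries 4, 5 and 6 than in libraries 1, 2, 3 and 7, and the epithelial classes had fewer than 10 cells in libraries 4 to 6.

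Hdc in neutrophils split the libraries. Neutrophil-like cells were at 2120 CPM in library 1 (1953 to 2298), 2222 in library 2 (2148 to 2298), 2124 in library 3 (2064 to 2186) and 2923 in library 7 (2832 to 3016). In library 4 they were at 170 (152 to 189), in library 5 at 474 (441 to 509) and in library 6 at 317 (293 to 343). Every library of the first set was thus above every library of the second, and within the first set only library 7 differed from the others by its interval.

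Pooled, neutrophil-like Hdc was at 2351 CPM (2311 to 2393) in 1526 cells of libraries 1, 2, 3 and 7 and at 313 CPM (299 to 328) in 774 cells of libraries 4, 5 and 6, a ratio of 7.51. The cells of the latter were deeper, with a median of 6549 UMIs against 2882. A Hdc UMI was seen in 90.4%, 95.3%, 96.5%, 66.2%, 87.2%, 73.3% and 97.2% of the cells of libraries 1 to 7. At 1000 UMIs a cell the shares were 80.9%, 83.2%, 84.9%, 14.4%, 34.8%, 27.7% and 88.3%. B cell-like cells, which should lack the enzyme, had a Hdc UMI in 1.03% of cells (0.744 to 1.39) at a median depth of 5094 UMIs and in 0.123% after thinning, below every neutrophil value.

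The same order stood within 1 cluster that held neutrophil-like cells of both sets, a comparison added after the values were seen. There Hdc was at 1008 CPM in library 1 (816 to 1231), 701 in library 2 (601 to 812) and 924 in library 3 (847 to 1006), against 153 in library 4 (126 to 185) and 74.8 in library 6 (35.9 to 138). The cells of this cluster were not alike in both sets. Their Ptgs2 was at 1281, 712 and 803 CPM in libraries 1, 2 and 3, against 7.03 and 7.48 CPM in libraries 4 and 6. They were also deep, with a median of 10688 UMIs. In the largest neutrophil-like cluster, 1380 cells led by Acod1, Il1r2 and Ptgs2 of which 1 came from libraries 4, 5 and 6, Hdc was at 2733, 2680, 2636 and 3190 CPM in libraries 1, 2, 3 and 7.

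Other genes moved with this split, and their part in it was not tested. Ptgs2, the inducible prostaglandin synthase, was at 2362 CPM in neutrophil-like cells of libraries 1, 2, 3 and 7 and 24.6 CPM in those of libraries 4, 5 and 6. The chemokine Cxcl2 was at 8120 and 6.65 CPM, and the cytokine Il1b at 16328 and 1593 CPM. Cxcr2, a chemokine receptor of mature neutrophils, was at 1244 and 1120 CPM, the granule gene Retnlg at 6094 and 6610 CPM, and S100a8 at 39607 and 47349 CPM.

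Neutrophil precursor-like cells, 143 cells with the middle granule genes Ngp at 25723 CPM and Camp at 24550 CPM, were mostly of library 4, with 122 cells. Hdc was at 278 CPM there (250 to 309), above the 170 CPM of the neutrophil-like cells of the same library. An unnamed cluster of 119 cells, 102 of them from library 7 and led by Ccl4, Hcar2 and Ccl3, had Hdc at 1296 CPM (1168 to 1434), and 59 of its cells had a UMI.

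The basophil or mast cell-like cluster shared the lower Hdc of libraries 4, 5 and 6. There Hdc was at 3182 CPM (2995 to 3377) in 80 cells of libraries 1, 2, 3 and 7 and at 556 CPM (396 to 760) in 12 cells of libraries 4, 5 and 6. Ms4a2-positive cells of all kinds were at 1963 and 418 CPM in these sets. By library, and with the deep cells outside the cluster, they were at 1708, 835, 3569, 230, 445, 519 and 3899 CPM from library 1 to 7, with 0 to 64 UMIs in a cell.

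Set against neutrophils of the same library, Hdc of the summed cells was higher in the cluster. The ratio was 1.35 in library 1 (1.18 to 1.54), 2.17 in library 3 (1.93 to 2.43) and 1.33 in library 7 (1.17 to 1.52). In library 2 it was lower, with a ratio of 0.862 (0.729 to 1.01) whose interval includes equal levels. Libraries 4, 5 and 6 had 2, 6 and 4 cells in the cluster and ratios of 1.35, 1.37 and 2.47, of which only that of library 6 (1.37 to 4.10) was clear of 1. Over all libraries the ratio was 2.08, and 1.35 over libraries 1, 2, 3 and 7 alone. With all cells thinned to the same depth, Hdc in library 1 was at 2800 CPM in the cluster and 2640 CPM in neutrophils. It was at 1900 and 2555 CPM in library 2, 4667 and 2435 CPM in library 3, and 3700 and 3165 CPM in library 7. A Hdc UMI was then seen in 71.4% and 80.9% of these cells in library 1 and 70.0% and 83.2% in library 2. In library 3 the shares were 100% and 84.9%, and in library 7 90% and 88.3%. The intervals of these shares overlapped in each library.

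Epithelial cells also carried Hdc, with 10.1% of its UMIs in airway and 4.48% in alveolar epithelial-like cells. A cluster of 137 airway epithelial-like cells led by Ccdc153 and Tmem212, with the ciliary regulator Foxj1 among its 10 leading genes, had Hdc at 639 CPM (611 to 667), in 134 cells. By library it was at 432 (1), 659 (2), 659 (3) and 714 CPM (7), with library 1, of 12 cells, below the rest by its interval. Airway epithelial-like cells led by Scgb3a1 were at 6.89 to 19.3 CPM over the same libraries, so most airway Hdc UMIs, 2054 of 2106, lay in the cluster led by Ccdc153. Alveolar epithelial-like cells, with Sftpc as the leading gene, had a Hdc UMI in 222 of 395 cells, at 110 to 157 CPM, and in 11.4% of cells at 1000 UMIs. Endothelial-like cells of the cluster led by Slc6a2 and Cytl1 had Hdc at 36.6 CPM, in 68 of 358 cells, against 5.97 CPM in the largest endothelial-like cluster, of 2176 cells.

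The rest of the histamine pathway was spread over other cells. Of its 7 genes with at least 200 UMIs, 2 were highest in the basophil or mast cell-like cluster by at least 2-fold, Hdc and Slc18a2, the transporter that loads histamine into granules, at 493 CPM, where 0.978% of all genes were. Slc18a2 was so in both sets of libraries taken alone and Hdc in neither. Slc18a2 was seen in 45 of the 59 cells with the basophil pattern. Hnmt, which methylates histamine, was highest in alveolar epithelial-like cells at 48.1 CPM and then in neutrophil-like cells at 30.1 CPM, and had no UMI in the cluster. Aoc1, which oxidizes histamine, was highest in airway epithelial-like cells at 29.7 CPM.

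Of the receptors, Hrh2 was at 31.9 CPM in neutrophil-like cells and 22.0 CPM in the basophil or mast cell-like cluster. Hrh4 was also at 22.0 CPM in the cluster, on 19 UMIs in all cells, and Hrh1 was highest in plasmacytoid dendritic cell-like cells at 9.82 CPM. Hrh3 had 3 UMIs in all. The uptake transporter Slc22a3 was highest in fibroblast-like cells at 27.4 CPM.

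Likeness of pattern was measured as Pearson's r of log2(CPM + 1) over 91 units, each a class in a library with at least 20 cells, which share libraries and depth. For Mcpt8 the nearest of 14211 genes were Cyp11a1 (0.96), Fcer1a (0.92) and Ms4a2 (0.91), and for Cpa3 they were Fcer1a (0.95), Ms4a2 (0.93) and Mcpt8 (0.90). For Cma1 they were Phactr3 (0.87), the NK cell receptor gene Ncr1 (0.86) and Serpinb9b (0.85). For Hdc they included Ptgs2os2 (0.83) and Acod1 (0.76). Mcpt4 had UMIs in 2 of the units and its nearest gene, Nts (0.86), rests on them, while Tpsb2 had none. Only libraries 1 and 2 had at least 20 cells in the basophil or mast cell-like cluster. The values of Mcpt8 and Cpa3 thus rest largely on the cluster in these libraries. Cyp11a1 and Fcer1a were also in the list that named it.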

How the data were processed

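Cells of samples labelled lung were profiled by droplet single-cell RNA sequencing. The deposited counts are whole-number UMI counts per gene and barcode, made by the authors with Cell Ranger and STAR on mm10 as the submitters' processing notes name them, in 1 matrix of 37344 barcodes without a column for the group. No version of these tools is stated in the notes.

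Cells with mitochondrial genes at most 10% of UMIs were kept. Counts were scaled to 10000 per cell, log-transformed and reduced to 2000 variable genes without the 6 members and Ms4a2, and clustered (scanpy 1.11.5, Leiden, 30 components, 20 neighbours, resolution 1). Clusters were named from marker lists. Scrublet called 573 doublets, which were kept. Libraries 4, 5 and 6 held 3000, 5000 and 5000 barcodes. Intervals are exact at 95%, and where no UMI was seen the limit stated is 3 counts. Shares were also taken after thinning each cell to 1000 UMIs. Genes were called highest in a class only with at least 200 UMIs. Positions are from GENCODE, whose IDs matched 30934 of 31053 genes.

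The named genes are the 6 members, genes of the listed pathways and markers, and the 3 genes of most similar pattern to each member, not all of which are reported here. The members and lists were chosen with earlier results of these data known, and the promoter motifs were picked during the analysis. Scripts were tested on simulated data. With 14011 genes simulated, the 2-fold rule recovered 76% of genes planted at 4-fold in the basophil or mast cell-like cluster and 98% at 16-fold. It also called 101 genes left unchanged, against 139 genes called in the real data. Calls in this small cluster, and the 0.978% share, can therefore hold many that arise from counting error. With 1 matrix and no group map, no test between conditions was made. Tpsb2 and Tpsab1 are close copies, so reads that fit both are uncertain. The 2-fold mark within each set of libraries, the basophil pattern inside the cluster alone and the eosinophil-like class without the cell of mast cell pattern were added after the values were seen.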

Additional observations from a re-analysis of the deposited data

How the results depend on the processing

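The basophil pattern share of Ms4a2-positive cells, 58.4%, was 37.5% in libraries 4, 5 and 6 alone, 45.5% where a pattern needed 2 UMIs and more than the other pattern, and 28.7% after thinning to 1000 UMIs, and ran from 53.8% to 61.2% with each library left out. The mast cell pattern share, 0.99%, rests on 1 cell: it was 0% with mitochondrial genes at most 5%, 0% in libraries 4, 5 and 6, 0% with at least 2 Ms4a2 UMIs, 0% to 1.49% with each library left out, and 1.98%, or 2 cells, both at the 2-UMI pattern and after thinning. Hdc in neutrophil-like cells, 1315 CPM, was 1460 CPM with the 5% limit, 1479 as an equal-weight mean of libraries, 2351 in libraries 1, 2, 3 and 7, 313 in libraries 4, 5 and 6, 1892 after thinning, 1354 with each library clustered on its own and 1160 with a per-cell gate, and ran from 1090 (without library 7) to 1555 (without library 4). Hdc in Ms4a2-positive cells, 1732 CPM, was 2066 with the 5% limit, 2006 with UMIs and genes within 2 SD, 2503 as an equal-weight mean, 1963 in libraries 1, 2, 3 and 7, 418 in libraries 4, 5 and 6, 1944 with at least 2 Ms4a2 UMIs and 2515 after thinning, and ran from 1434 (without library 3) to 2118 (without library 2). The causes were not tested. No paired analysis was possible because the library numbers of the matrix carry no group or replicate number. Depth limits the rare cells most: a Mcpt8 level of a few UMIs a cell can be missed, and the values of libraries 4, 5 and 6 rest on 16 Ms4a2-positive cells.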
